A study of Mus musculus with 32 samples.

Results

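The genes described here carry the machinery of membrane traffic: Rab and Arf GTPases, vesicle coats, clathrin adaptors, the secretory Sec proteins, SNAREs, vacuolar protein sorting (Vps) proteins and sorting nexins. They were taken by gene symbol: Rab or Arf followed by a digit, Vamp, Stx, Vps, Snx, Sec followed by a digit, Cop followed by a, b, e, g or z, and Ap1 to Ap4 followed by the letter of a subunit. This gave 148 probe sets of 107 genes (of 6137 genes that a probe set names by itself), 114 on array design a and 34 on design b, of 13057 probe sets that are no controls. A probe set is a group of short oligonucleotides that reports a transcript, and 33 genes had several. Of the 148 probe sets, 114 (91 genes) were bright enough to be tested, 58 were above background on all 16 arrays of their design and 27 on none. The letters also caught genes outside the families named above. Vps72 belongs to a chromatin complex, Rab10os and Rab26os are antisense transcripts, and Sec14l1 and Sec14l2 are lipid-binding proteins. Rab3ip, Rab3il1 and Rab11fip5 bind Rab proteins, and Stxbp2 and Stxbp3 bind syntaxins. Ap1ar was counted with the clathrin adaptors by its symbol.

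RNA came from UB/OC-1, a mouse line of the embryonic auditory epithelium. It carries a temperature-sensitive immortalising gene, active at 33 °C, where it proliferates, and inactive at 39 °C, where the labels put it under differentiation. Total RNA was hybridised to 16 arrays of each design. Experiment A was followed at 33 °C (day 0) and then at 39 °C on days 1 to 9, 11 and 14, and experiment B at 33 °C on day 0 and at 39 °C on days 2, 4 and 9. Day 0 had 2 arrays per design, from A and B. The early phase took 4 arrays from days 1 to 3, the middle phase 5 from days 4 to 7 and the late phase 5 from days 8 to 14. No label gives replicate cultures of the same day within an experiment, so p-values measure the spread between days and between the experiments, and the model is a single cell line. All groups share the immortalising gene, and temperature and time at 39 °C change together.

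Membrane proteins and secreted proteins enter the endoplasmic reticulum through the Sec61 channel, helped by Sec62 and Sec63. COPII vesicles carry them to the Golgi, COPI vesicles return residents, and AP-1, AP-2 and AP-3 adaptors sort cargo between the Golgi, the plasma membrane and lysosomes. Rab and Arf GTPases mark each compartment, SNAREs fuse the membranes, ESCRT complexes sort proteins into the lysosome, and retromer with sorting nexins brings receptors back. In hair cells of the ear this traffic supplies the apical bundle and the ribbon synapse.

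The deposited intensities are linear values that the authors scaled to a like mean on every array. Values under a floor (141 on design a, 198 on design b) were set to it, and changes are differences of log2 intensity with their standard error (SE). Each array of design a had 44.3% to 50.8% of its probe sets above the floor, each of design b 30.9% to 40.4%, and the number of arrays limits the precision. Of the organ of Corti markers Atoh1 and Fgf8 were above the floor on no array, and Myo7a, Pax2 and Gata3 were above it on 15, 11 and 12 arrays in their better probe set. Their summed intensity above the floor was 198 to 807 at day 0 and 1089 to 1854 late. The simple epithelium markers went from 4234 to 5824 at day 0 to 697 to 1129 late, with 2 of 5 genes above the floor. Most of this sum was Krt18, whose median went from 4835.5 at day 0 to 896 late. Krt8 was above the floor on 7 arrays in its better probe set, and Krt19, Cdh1 and Epcam were never above it. The macrophage and blood markers, 3 of 5 above the floor with Csf1r and Adgre1 never above it, went from 1381 to 4934 at day 0 to 3370 to 12740 late. Those of neurons and regulated secretion (3 of 8 genes above) summed to between 1045 and 2642, within which the median of Tubb3 went from 1608 at day 0 to 459 late and that of Scg2 from 194 to 1478. Those of endothelium (2 of 4) summed to between 0 and 734 and those of melanocytes (3 of 4) to between 278 and 2733. The part of these markers in the results below was not tested.

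Some arrays stood apart before any comparison of days. On design a, days 2 and 8 of experiment A lay beyond the other 14 arrays for 9 of 91 tested trafficking probe sets, against 5.78% of all probe sets tested there. These 2 arrays were singled out after the values were seen, and no test was made. Snx3, a sorting nexin that binds endosomal lipid, read 3026 and 2963 on these days and 852 to 1583 on the other arrays. Sec24c, the COPII subunit that selects cargo, read 1737 and 1680 against 563 to 1114. Cope, a COPI subunit, Snx14, Vamp4, Vps35 of retromer and a probe set of Copz2 were also high on both, and Arf6 and Rab5if were low. On design b the arrays fell into sets of 8 and 8, told apart by 3 probe sets of other genes, and Rab23 followed these sets. Rab23, a Rab of the Hedgehog pathway, read 312 to 876 in the set that holds days 0, 1, 2, 5, 6, 8 and 11 of A and day 9 of B, and 45 to 76, under the floor, in the other. Of the 23 tested trafficking probe sets of design b it was the only one whose sets did not overlap, where 1.78% of all did. None of these genes passed a comparison between phases by limma over all arrays. Fits without days 2 and 8 of A, and with the design b sets as a covariate, are among the alternatives below. The part of the arrays in the values of single genes was not tested.

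**Figure D1:**
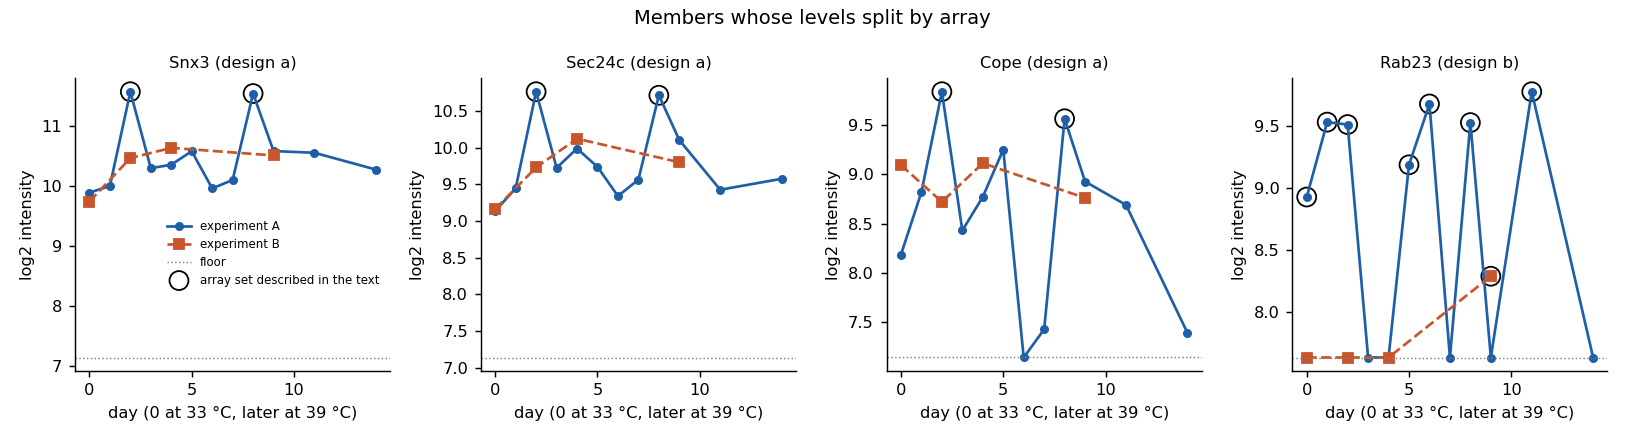
Log2 intensity against day for Snx3, Sec24c and Cope on design a and Rab23 on design b, in experiment A (blue circles, solid line) and experiment B (orange squares, dashed line); the dotted line is the floor and black rings mark the arrays singled out in the text. Ringed points lie above all others: Snx3 at 3026 and 2963 against at most 1583, and Rab23 at 312 or more against values under the floor.

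The promoters of 4 genes that passed a test below are shown first: Sec62, Snx1 and Rab24 rose late and Rab7 passed over the time course. They are the 250 bases before the annotated transcription start in RefSeq (GRCm38.p6), written along the gene. Of the 107 genes, 88 had an entry, with 104 promoters between them, and Vps28 had none. Ap1s1 and Rab33a, which also passed over the time course, are not shown. The Sec62 stretch is chr3:30792626-30792875 (plus strand), that of Snx1 chr9:66124887-66125136 (minus strand), that of Rab24 chr13:55321981-55322230 (minus strand) and that of Rab7 chr6:88045271-88045520 (minus strand). Capitals mark every match to 5 motifs searched on both strands, so that a match on the other strand reads as its reverse complement. The E-box was searched as the letters CACGTG and the GC box as GGGCGG. The CCAAT box was searched as its name, the core of ETS sites as CCGGAA and the cAMP response element as TGACGTCA.
Sec62 promoter: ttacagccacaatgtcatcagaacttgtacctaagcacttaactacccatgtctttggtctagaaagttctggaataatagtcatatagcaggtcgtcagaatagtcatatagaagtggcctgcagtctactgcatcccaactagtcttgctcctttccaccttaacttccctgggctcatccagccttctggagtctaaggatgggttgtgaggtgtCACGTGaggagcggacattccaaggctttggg
Snx1 promoter: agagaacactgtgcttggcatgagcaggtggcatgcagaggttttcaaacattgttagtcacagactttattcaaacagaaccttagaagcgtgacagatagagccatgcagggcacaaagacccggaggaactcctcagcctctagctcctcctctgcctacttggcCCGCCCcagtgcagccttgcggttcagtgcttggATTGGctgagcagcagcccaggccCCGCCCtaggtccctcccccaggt
Rab24 promoter: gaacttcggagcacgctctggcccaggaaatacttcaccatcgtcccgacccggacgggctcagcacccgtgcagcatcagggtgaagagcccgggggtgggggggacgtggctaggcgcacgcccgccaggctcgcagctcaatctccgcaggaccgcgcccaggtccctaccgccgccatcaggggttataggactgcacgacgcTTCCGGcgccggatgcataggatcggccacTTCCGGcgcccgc
Rab7 promoter: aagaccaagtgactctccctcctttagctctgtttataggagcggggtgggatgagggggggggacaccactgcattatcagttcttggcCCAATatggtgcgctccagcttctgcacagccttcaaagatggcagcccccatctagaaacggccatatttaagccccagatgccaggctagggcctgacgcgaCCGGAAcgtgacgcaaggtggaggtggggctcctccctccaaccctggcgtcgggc
The Sec62 stretch held 1 E-box, that of Snx1 2 GC boxes and 1 CCAAT box, that of Rab24 2 ETS cores, and that of Rab7 1 CCAAT box and 1 ETS core, so no motif was common to all 4. An E-box was in 15 of the 104 promoters of the trafficking genes (14.4%) and in 6.02% of all 32851 promoters. The GC box was in 67.3% against 32.7%, the ETS core in 30.8% against 12%, the CCAAT box in 35.6% against 33.8% and the cAMP response element in 1.92% against 1.55%. The whole table includes many genes that are not expressed here, and these shares describe letters, not binding.

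The first question is how trafficking genes stood in the first days at 39 °C. Against day 0, 1 of the 114 tested probe sets rose early and 0 fell (limma, adjusted p under 0.05), 0.877% of them where 3.49% of all 7726 tested probe sets passed and 1.45% rose. Their median change was 0.12 against 0.05 for all probe sets, and 9 (7.89%) had an unadjusted p under 0.05, where 13.1% of all did. The share of all probe sets with such a p was 19.5% in the middle phase and 22.4% late, against which the counts per class below are to be read. In the middle phase 4 rose and 0 fell, where 8.19% of all passed and 3.61% rose, and the median was 0.18 against 0.08. Late, 5 rose and 0 fell, where 10.9% of all passed and 4.84% rose, and the median was 0.26 against 0.11. Counting both directions, the share called (4.39% late) was below the background in each comparison, and counting rises alone it was near it late. Of the 114, 80 (70.2%) had a change above 0 late where 62% of all did. A change over 2-fold was seen late in 8 of them (7.02%), against 15.8% of all. Late against early, 0 passed by limma, where 0.984% of all did, and 12 (10.5%) had an unadjusted p under 0.05, as did 10% of all.

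Experiment pairs the samples, so each count was also taken with experiment as a block. The block left 1 call early (0.877%, where 469 of all 7726 passed). It gave 7 in the middle phase (6.14%, 6 higher and 1 lower), where 12.4% of all passed and 463 of 7726 rose. Late it gave 8 (7.02%, all higher), where 14.5% of all passed and 527 of 7726 rose. Among these 8, the brightest Sec62 probe set changed by 2.57 (limma adjusted p = 0.000807) and Snx1 by 1.22 (0.00314). The first probe set of Vps28 changed by 1.22 (0.000669) and its second by 1.24 (0.000834). Late against early the block gave 1 (0.877%), where 2.38% of all passed. Over the whole time course, a spline in day passed for 7 probe sets where 9.73% of all passed, and with the block for 15 where 16.1% did. Without days 2 and 8 of A it passed for 11 where 10.1% of all passed. Quantile normalization of the arrays moved the balance late from 5 higher and 0 lower to 5 higher and 2 lower, of 118 tested. Of all 7723 tested probe sets, 327 then rose and 495 fell. Among the 5 higher ones Rab7 took the place of Rab24. The lower ones were a probe set each of Ap1ar and Ap2a2, next to the floor. Without this normalization that of Ap1ar was above the floor on 1 array and was not tested, and that of Ap2a2 was above it on 4.

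**Figure D2:**
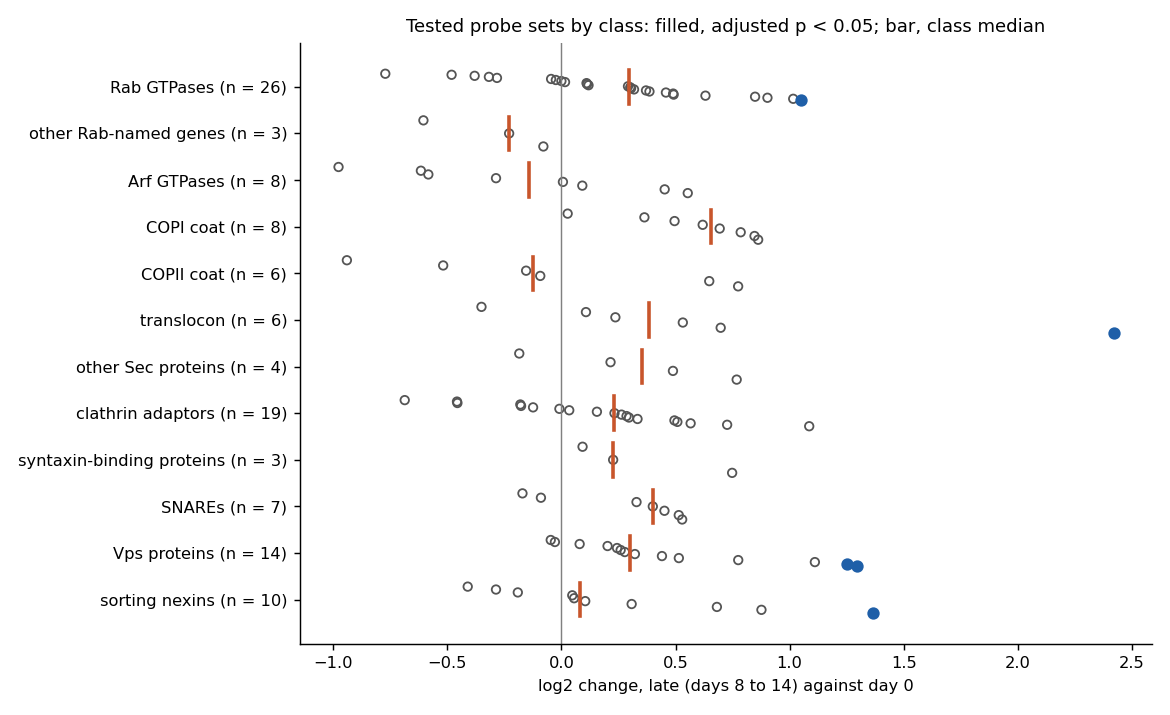
Log2 change of each tested probe set late against day 0 (x axis), by class (y axis, with the number tested); filled blue points passed at adjusted p under 0.05, open points did not, and the orange bar is the class median. The 5 filled points are Rab24, Sec62, both probe sets of Vps28 and Snx1, and all 8 COPI probe sets lie above 0.

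Vps28 rose in the middle and late phases on both of its probe sets, and early on 1 of them. It encodes a subunit of ESCRT-I, which sorts ubiquitinated membrane proteins into multivesicular bodies on their way to the lysosome. On its first probe set, intensity at day 0 was 677 in experiment A and 761 in B. It was 1084, 1367 and 1711 on days 1, 2 and 3 of A and 1356 on day 2 of B. The middle days gave 1736, 1576, 1905 and 1721 in A and 1339 in B, and the late days 1676, 1801, 1918 and 1536 in A and 1631 in B. All arrays at 39 °C were above both at 33 °C. The change was 0.92 ± 0.24 (SE, n = 4 against 2; 1.9-fold, limma adjusted p = 0.0362) early, 1.2 ± 0.23 (adjusted p = 0.00226) in the middle phase and 1.25 ± 0.23 (2.38-fold, adjusted p = 0.00135) late. The early call did not last when single cultures were left out: adjusted p was 0.188 without day 0 of A and 0.142 without day 0 of B, and it lay between 0.0517 and 0.107 without day 2, 3, 4, 5, 7 or 9 of A or day 2 of B.

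The second probe set of Vps28, which comes from the same database sequence and is no independent witness, gave 926 and 783 at day 0 and 1112 to 1928 early. It read 1625 to 2391 in the middle phase and 1879 to 2389 late, again above both day 0 arrays throughout. It rose by 1.19 ± 0.24 (adjusted p = 0.00396) in the middle phase and by 1.29 ± 0.24 (2.45-fold, adjusted p = 0.00157) late, and early its change was 0.71 ± 0.25 (adjusted p = 0.166). Its middle call ended when day 0 of B was left out (adjusted p = 0.0744) or A was fitted by itself (0.0528). Within experiments, its change from day 0 to day 9 was 1.14 in A and 1.26 in B. Over the time course both probe sets passed (adjusted p = 0.00201 and 0.000612).

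The other Vps genes stayed closer to day 0. Of 14 tested Vps probe sets, only the 2 of Vps28 passed late by limma, with a class median of 0.30. Vps4a, the ATPase that takes ESCRT-III apart, read 1092 and 463 at day 0 and 750 to 2898 in the middle phase, a change of 1.18 ± 0.62 (adjusted p = 0.322). Vps51, a subunit of the GARP and EARP tethers, read 830 and 313 at day 0 and 471 to 2397 late, a change of 1.11 ± 0.80 (adjusted p = 0.463). For both genes the groups overlapped, and the day 0 arrays differed more than 2-fold between the experiments.

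**Figure D3:**
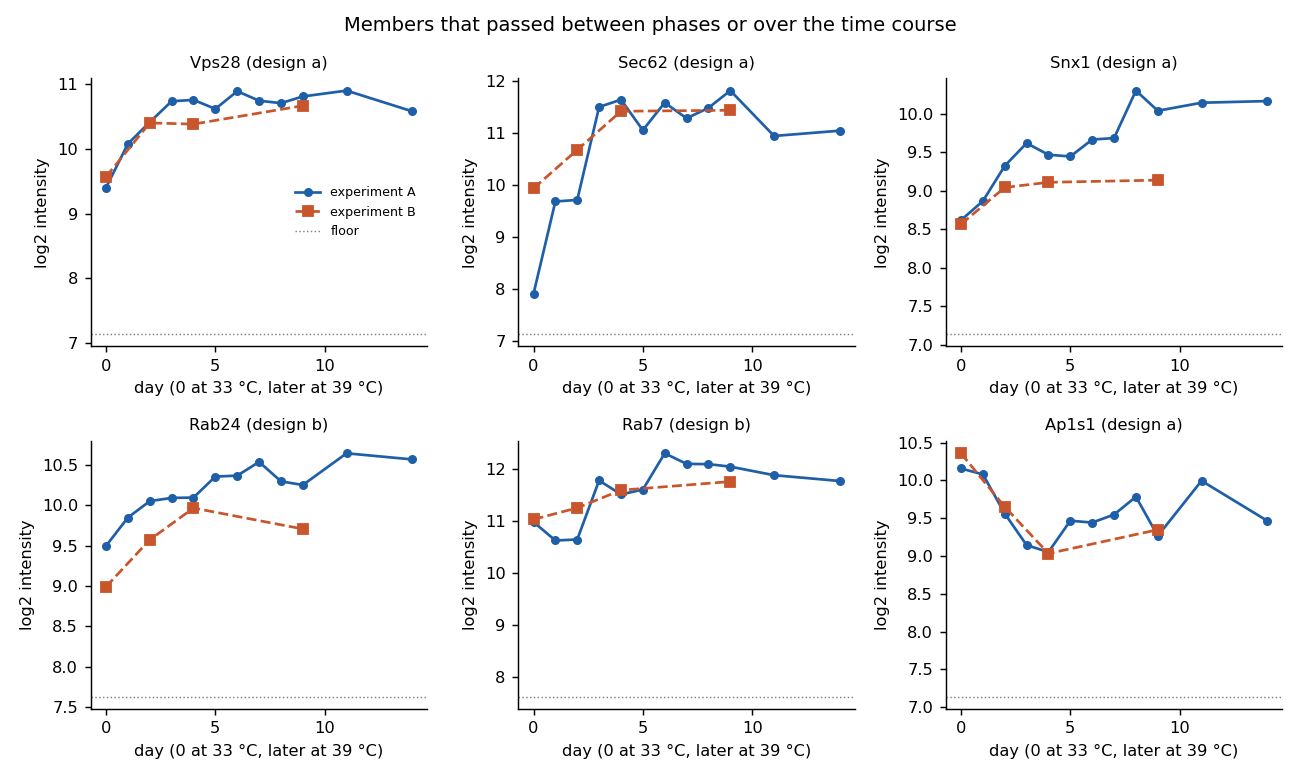
Log2 intensity against day for Vps28 (its first probe set), Sec62, Snx1, Rab24, Rab7 and Ap1s1 in experiment A (blue circles) and experiment B (orange squares); the dotted line is the floor. Vps28 and Sec62 are lowest at day 0 in both experiments, Rab7 in A steps up between days 2 and 3, and Ap1s1 is highest at day 0.

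Sec62 gave the largest change of the tested trafficking probe sets. It encodes a membrane protein of the endoplasmic reticulum that helps small precursors into the Sec61 channel and also acts as a receptor for turnover of the reticulum by autophagy. On its brightest probe set day 0 read 240 in A and 977 in B. Days 1 and 2 of A read 821 and 838, day 3 of A 2886 and day 2 of B 1632. The middle days read 3182, 2120, 3058 and 2482 in A and 2727 in B, and the late days 2851, 3589, 1963 and 2105 in A and 2763 in B. Every middle and late array lay above every day 0 and early array except day 3 of A. The change was 1.47 ± 0.49 early (2.77-fold, adjusted p = 0.125), 2.47 ± 0.47 in the middle phase (5.54-fold, adjusted p = 0.00215) and 2.42 ± 0.47 late (5.35-fold, adjusted p = 0.00215). Early it passed with a covariate for array noise (1.41, adjusted p = 0.0429), and without day 0 of B the early change was 2.48 (5.59-fold). Its size rested on day 0 of A: without that culture the fold was 2.75 in the middle phase and 2.65 late, and neither passed. Without day 0 of B it was 10.8 late. Each fit without a day 0 culture leaves 1 array at day 0. Within experiments the change from day 0 to day 9 was 3.9 in A and 1.5 in B.

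A further Sec62 probe set from the same database sequence read 87 (under the floor) and 284 at day 0 and 183 to 990 late. Its change of 0.70 ± 0.66 did not pass (adjusted p = 0.587), but did with experiment as a block (1.19, adjusted p = 0.0341). B was above A on every matched day. The last Sec62 probe set was under the floor on all arrays. Among 6 tested translocon probe sets, late, that 1 passed (higher) and 5 missed the threshold. Sec61a1, the pore subunit, read 3238 and 2420 at day 0 and 1002 to 6551 late on its probe set with the higher mean, a change of 0.24 ± 0.51 (adjusted p = 0.828). Sec63, the membrane partner that recruits the chaperone BiP, read 517 and 272 at day 0 and 191 to 329 early, a change of -0.58 ± 0.38 (adjusted p = 0.655).

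Snx1 rose late. It is a membrane-bending sorting nexin that works with retromer to return receptors from endosomes to the Golgi. Day 0 read 393 in A and 379 in B. The early arrays read 467, 641 and 787 on days 1 to 3 of A and 528 on day 2 of B, and the middle ones 709, 698, 813 and 824 in A and 553 in B. The late days of A read 1264, 1054, 1133 and 1150, while day 9 of B read 564. The late change was 1.37 ± 0.32 (2.58-fold, adjusted p = 0.00804), and it ended without day 0 of B (1.34, adjusted p = 0.0797). Day 9 of B stood apart from the 4 late arrays of A, and the change from day 0 to day 9 was 1.42 in A and 0.57 in B. Early the change was 0.62 ± 0.33 (adjusted p = 0.481) and in the middle phase 0.88 ± 0.32 (adjusted p = 0.104). The time course passed (adjusted p = 0.0125), but not without day 0 of A (0.0506) or of B (0.0607).

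Of 10 tested sorting nexin probe sets, only that of Snx1 passed late by limma, with changes from -0.41 to 1.37 with a median of 0.08. Snx5, above the floor on 3 arrays at 142 to 185, passed as lower in each phase without day 0 of A (-0.38 late, adjusted p = 0.0256). Snx17, which recycles receptors from early endosomes, read 2799 and 786 at day 0 and 1623 to 4278 late, a change of 0.68 ± 0.50 (adjusted p = 0.472) with overlapping groups.

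Among Rab GTPases, 26 probe sets of 20 genes were tested. In the middle phase 1 rose and 0 fell, and late again 1 rose and 0 fell, with medians of 0.40 and 0.30. The one that rose was Rab24, an atypical Rab with weak GTPase activity that is known from autophagy. Day 0 read 723 in A and 509 in B, and the early arrays 922, 1062 and 1092 in A and 762 in B. The middle days read 1095, 1312, 1322 and 1488 in A and 1001 in B, and the late days 1259, 1220, 1602 and 1520 in A and 836 in B. Each experiment at 39 °C lay above its own day 0, and B was below A on each shared day. The change was 0.65 ± 0.32 early (adjusted p = 0.414), 1.02 ± 0.31 in the middle phase (2.03-fold, adjusted p = 0.0465) and 1.05 ± 0.31 late (2.07-fold, adjusted p = 0.033).

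These Rab24 calls were close to the threshold. Both ended after quantile normalization (adjusted p = 0.064 in the middle phase and 0.0556 late), with no filter (0.12 and 0.0881), and with the noise covariate (1.67-fold and 1.62-fold; 0.0562 and 0.0842). They also ended without days 2 and 8 of A (0.0717 and 0.0663) and with late as days 9 to 14 (0.0535 for the late one). Days 2 and 8 are in neither day 0 nor the middle phase, so the middle change stayed at 1.02 without them. The middle one ended too with the lower floor (0.054) and with early as days 1 and 2. With experiment as a block the late change was 0.90 (adjusted p = 0.00873), but without day 0 of B it was 0.80 (adjusted p = 0.376), and in experiment A alone 0.94 (adjusted p = 0.0627). The late call also ended without day 0 of A (0.0501), day 8 (0.0555), day 9 (0.0567), day 11 (0.0642) or day 14 (0.0675) of A. The middle call was lost without day 0 (0.0664), 2 (0.0565), 3 (0.0525), 4 (0.0656), 5 (0.0891), 6 (0.0758), 7 (0.0953), 8 (0.0588), 9 (0.0638) or 14 (0.0522) of A or day 0 of B (0.424). The time course of Rab24 had an adjusted p of 0.0549, and of 0.0106 with the block.

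Rab7, the Rab of late endosomes and lysosomes, passed over the time course (adjusted p = 0.00891) but between no 2 phases. It read 2031 and 2101 at day 0, and 1586, 1607 and 3529 on days 1, 2 and 3 of A with 2449 on day 2 of B. The middle days gave 2931, 3126, 5070 and 4403 in A and 3100 in B, and the late days 4388, 4243, 3787 and 3505 in A and 3478 in B. All middle and late arrays were above both day 0 arrays, while days 1 and 2 of A were below them. The late change was 0.90 ± 0.31 (1.87-fold, adjusted p = 0.0735; 0.0593 with the block). It passed after quantile normalization (0.98, adjusted p = 0.0358) and without day 3 of A (0.90, adjusted p = 0.0421), where late against early passed as well (1.07, adjusted p = 0.0306).

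Rab33a, a Golgi and vesicle Rab, also passed over the time course (adjusted p = 0.0112), on values next to the floor: 287 on day 14 of A, 160 to 197 on days 5, 6, 7 and 11, and under the floor of 141 elsewhere. Without day 14 of A its adjusted p was 0.616, and with the lower floor 0.525. Its other probe set was above the floor on 3 arrays, days 0, 1 and 5 of A, and did not pass (adjusted p = 0.369). Rab1a, of transport from the endoplasmic reticulum to the Golgi, read 3947 and 4897 at day 0 and 2443 to 5124 late, a change of -0.38 ± 0.38 (adjusted p = 0.607). Rab31, a Rab of the trans-Golgi network and endosomes, read 718 and 1177 at day 0 and 422 to 691 late, all below both, a change of -0.77 ± 0.32 (adjusted p = 0.148). Its time course passed with the block (adjusted p = 0.0396) and not without it (0.0665), and also after quantile normalization (0.0461) and without day 2 of A (0.0388) or day 9 of B (0.0476).

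Rab18, a Rab of lipid droplets and the endoplasmic reticulum, is given because the block changed its call. On its design a probe set, experiment A read 272 at day 0 and 597 to 832 in the middle phase, and B 766 at day 0 and 1506 on day 4. The middle change was 0.81 ± 0.55 (adjusted p = 0.486), and with the block 1.22 (adjusted p = 0.00961). Late it was 0.49 ± 0.55 (adjusted p = 0.648), and with the block 0.90 (adjusted p = 0.0455). Its 2 probe sets on design b passed in none of the phases with or without the block.

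Of the 3 tested probe sets of other Rab-named genes, 0 passed by limma, 0 had an unadjusted p under 0.05 and all had negative changes late. Rab3ip, the exchange factor Rabin8, read 295 and 397 at day 0 and 140 to 449 late (-0.60 ± 0.46, adjusted p = 0.49), and Rab5if read 938 and 1675 at day 0 and 548 to 1633 late (-0.23 ± 0.34, adjusted p = 0.742). In both genes experiment B was above A on all 4 matched days.

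None of the 8 tested Arf probe sets passed between phases by limma over all arrays without the block, and 1 had an unadjusted p under 0.05 late. Arf1, which recruits COPI and AP-1 to the Golgi, read 846 and 1586 at day 0 and 235 to 1338 late, a change of -0.98 ± 0.58 (adjusted p = 0.354). All 4 arrays of B (1251 to 1586) were above all 12 of A (235 to 901), so the unequal share of B among the phases enters this value, which was -0.59 with the block (adjusted p = 0.404). Arf2 was above the floor on 2 arrays only, days 0 and 2 of A at 331 and 286. Its change was -0.62 in the middle phase and late, and did not pass. It passed as lower without day 0 of B (-1.23, at least 2.35-fold, adjusted p = 0.0154 in the middle phase and 0.0133 late) and in experiment A alone (adjusted p = 0.0306 and 0.0274), a call that rests on the single value of 331. Arf3 read 611 and 289 at day 0, 119 to 379 early and 484 to 865 late. With the block its change late against early was 1.06 (adjusted p = 0.0267), and without it 1.10 (adjusted p = 0.218), and its time course passed with the block only (adjusted p = 0.0163). Day 2 of B, at the floor, stood apart from the other early arrays. Arf6, of the plasma membrane, read 675 and 1123 at day 0 and 419 to 1135 late on its probe set with the highest mean (-0.29 ± 0.39, adjusted p = 0.719).

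**Figure D4:**
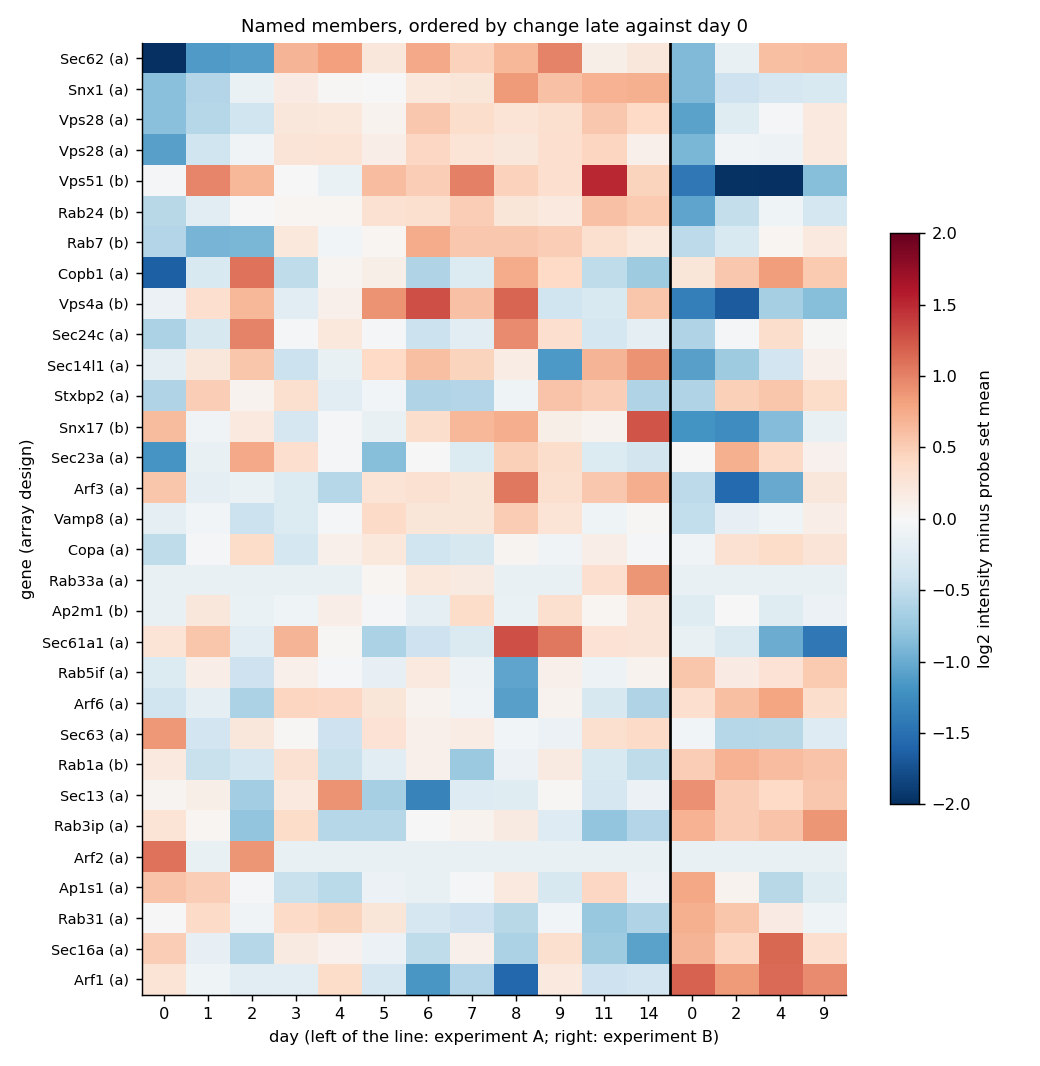
Log2 intensity of each named probe set minus its own mean (colour, red higher, blue lower) by array, with the days of experiment A left of the black line and those of B right of it; genes are ordered by their change late against day 0. Sec62, Snx1 and Vps28 at the top are blue at day 0 in both experiments, while Arf1 at the bottom is red in all 4 arrays of B.

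COPI and COPII genes did not pass in any phase by limma over all arrays, with or without the block. All 8 tested COPI probe sets (6 genes) had positive changes early and late, where 57.8% and 62% of all tested probe sets were positive. Their medians were 0.39 and 0.66, with late values from 0.03 to 0.86. In the middle phase 7 of the 8 were positive, with a median of 0.36 and a lowest value of -0.30, where 60.3% of all were positive. Late, 3 of 8 had an unadjusted p under 0.05, where 22.4% of all did. Days 2 and 8 of A, on which Cope and a Copz2 probe set were high, lie in the early and late phases. Within B, Cope was below its day 0 on day 2 (-0.37) and day 9 (-0.33), and the other COPI probe sets were above theirs. Without day 0 of A, Copg1, the gamma subunit, passed late (1.48, adjusted p = 0.0471; 0.85 with it), as did a probe set of Copz2, a zeta subunit (1.38, adjusted p = 0.0366; 0.86 with it). With the noise covariate, Copz1 passed late (0.80, adjusted p = 0.0477). Copa, the alpha subunit, read 755 and 1022 at day 0 and 1024 to 1292 late, above both, on its probe set with the higher mean (0.36 ± 0.28, adjusted p = 0.485). Copb1, the beta subunit, read 156 and 574 at day 0 and 296 to 812 late (0.79 ± 0.55, adjusted p = 0.449). The early value of Copb1 was 1037 on day 2 of A and 342 to 705 on the other 3 early arrays.

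Of the 6 tested COPII probe sets, 2 were positive and 4 negative late, and 1 had an unadjusted p under 0.05. Sec23a, the GTPase-activating inner coat subunit, read 96 (under the floor) and 318 at day 0 and 287 to 542 early, a change of 1.01 ± 0.43 (adjusted p = 0.277). Sec24c, its partner, read 563 and 573 at day 0 and 688 to 1680 late, above both (0.77 ± 0.37, adjusted p = 0.221), with day 8 of A at the top. Sec13, of the outer cage, read 602 and 1093 at day 0 and 456 to 839 late (-0.52 ± 0.48, adjusted p = 0.579). Sec16a, which organises exit sites, read 415 and 476 at day 0 and 66 to 372 late, below both (-0.94 ± 0.46, adjusted p = 0.241). The groups of Sec23a and Sec13 overlapped.

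Clathrin adaptor genes held 19 tested probe sets of 13 genes, of which 0 passed between phases by limma without the block, with a late median of 0.23 and 4 at an unadjusted p under 0.05 late, near the 22.4% of all probe sets. Ap1s1, the small subunit of AP-1, passed over the time course (adjusted p = 0.039). It was highest at day 0, at 1143 in A and 1314 in B, and read 1083, 756 and 566 on days 1 to 3 of A and 804 on day 2 of B. The middle days read 531, 708, 696 and 749 in A and 524 in B, and the late days 882, 616, 1021 and 708 in A and 652 in B. All arrays at 39 °C were below both day 0 arrays. In the middle phase the change was -0.95 ± 0.30 (1.93-fold lower, adjusted p = 0.0548), and with the block -0.99 (adjusted p = 0.0255). Late it was -0.69 ± 0.30 (adjusted p = 0.166). The time course did not pass without day 0 of B (adjusted p = 0.198), in experiment A alone (0.203), or without day 0 (0.102), 1 (0.0861), 3 (0.0792), 4 (0.0969) or 7 (0.0573) of A or day 2 (0.0586) or 4 (0.0754) of B.

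Ap2m1, the medium subunit of the endocytic AP-2, read 5881 and 5557 at day 0 and 5932 to 8137 late on design b, a change of 0.26 ± 0.24 (adjusted p = 0.577). Ap3d1, the delta subunit of AP-3, which serves lysosomes and related organelles, is named because the block changed its call. It read 311 at day 0 and 723 to 1738 late in A, and 897 at day 0 and 1164 on day 9 in B. The late change was 1.09 ± 0.43 (2.12-fold, adjusted p = 0.123), and 1.31 with the block (adjusted p = 0.0161). It also passed late without day 0 of B (1.85, adjusted p = 0.0379), in experiment A alone (1.84, adjusted p = 0.0281) and with the noise covariate (1.29, adjusted p = 0.00151), where the middle phase passed too (0.82, adjusted p = 0.0339).

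None of the 7 tested SNARE probe sets passed by limma with or without the block, and 0 had an unadjusted p under 0.05 in any of the 4 comparisons. Another 7 SNARE probe sets were not tested for want of signal, among them those of Stx1a, Stx2, Vamp1 and Vamp7. Vamp8, an endosomal SNARE, read 835 and 673 at day 0 and 893 to 1357 late, above both (0.51 ± 0.25, adjusted p = 0.227). Stxbp2, the Munc18 protein of regulated secretion, was under the floor at day 0 (67 and 87) and read 223 to 300 early, above both, a change of 0.94 ± 0.38 (adjusted p = 0.256). Among other Sec proteins, Sec14l1 read 395 and 211 at day 0 and 202 to 835 late (0.77 ± 0.49, adjusted p = 0.395), with overlapping groups.

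Experiments A and B were also set side by side. On the 4 shared days (0, 2, 4 and 9), Vps51 was at least 2-fold higher in A and the fainter Sec62 probe set at least 2-fold higher in B on each, 2 of 114, near the 2.05% of all probe sets that showed such a difference. Vps51 read 830, 1344, 775 and 1065 in A and 313, 215, 195 and 471 in B. A test of whether the change between phases differed between A and B passed for 0 of 114 in limma in any of the 4 comparisons, with 2 to 6 at an unadjusted p under 0.05. Of all probe sets 0.712% passed early, 0.958% in the middle phase, 1.23% late and 0.505% late against early, so a count of 0 says little. From day 0 to day 9 the changes of the 114 probe sets in A and in B, which have separate day 0 arrays, correlated across probe sets at r = 0.259 (0.517 for all). On day 2 r was 0.416 (0.582 for all) and on day 4 it was 0.496 (0.661 for all). Probe sets of a design share arrays, so these values are descriptions. The medians on day 9 were 0.07 in A and 0.28 in B.

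**Figure D5:**
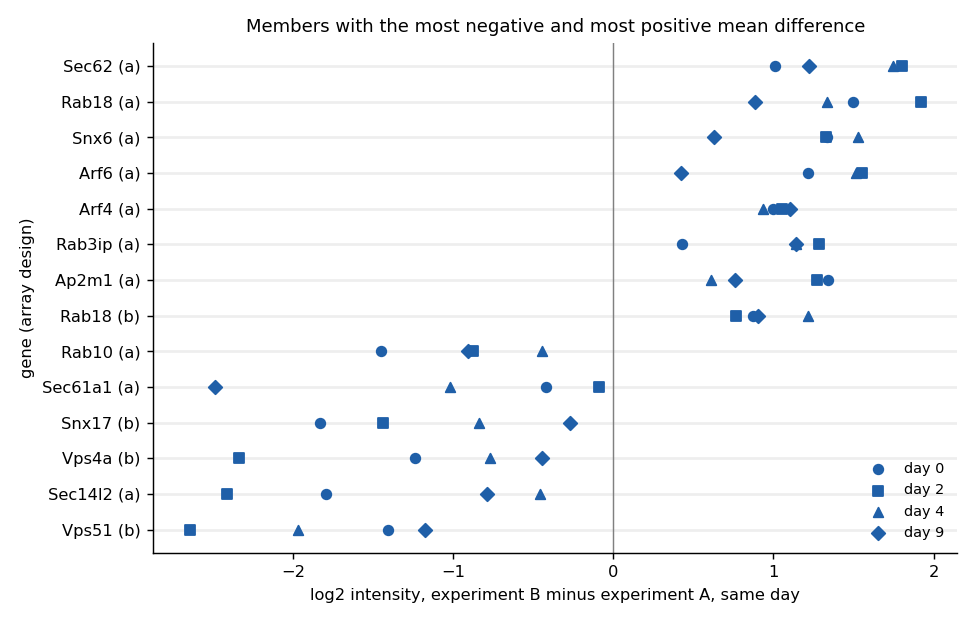
Difference in log2 intensity between experiments B and A on the same day (x axis; marker shape gives the day) for the trafficking probe sets with the most negative and the most positive mean difference (y axis). Vps51 and the fainter Sec62 probe set lie beyond 1 in size on all 4 days.

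Further trafficking genes that the symbol rule does not take were counted in the same fit from a list of 145 symbols, 65 of which had a probe set. Of 76 tested probe sets, 5 rose and 1 fell late, with a median of 0.09, and 2 rose and 0 fell both early and in the middle phase. Late, 10.9% of all tested probe sets passed and 4.84% rose, in the middle phase 8.19% passed and early 3.49%. Those that rose late were 2 probe sets of Flot1, a lipid raft scaffold (2.5-fold and 2.15-fold; adjusted p = 0.0258 and 0.00302), and Kdelr1, the receptor that retrieves resident proteins of the endoplasmic reticulum (2.17-fold, adjusted p = 0.00523). They were joined by Chmp2a (1.94-fold, adjusted p = 0.0402) and Chmp4b (2.12-fold, adjusted p = 0.0106), which are subunits of ESCRT-III. The remaining Flot1 probe set (0.68, adjusted p = 0.406) and Flot2 (0.08, adjusted p = 0.885) did not pass late. Neither did Tsg101 (-0.22, adjusted p = 0.875), Hgs (0.59, 0.545), Stam (0.20, 0.798) or Pdcd6ip (0.88 and -0.86 on its probe sets, 0.352 and 0.344). Srp9, of the signal recognition particle, was under the floor on all 5 late arrays, at least 2.64-fold lower (adjusted p = 0.0304), on a probe set that is shared by related sequences. Another Srp9 probe set on the same design was above the floor on 4 of 5 late arrays and had a change of 0.23 (adjusted p = 0.802). The Srp9 probe set on design a, also shared by related sequences, was above the floor on 0 of 5 late arrays. Its change was -0.85 (adjusted p = 0.103). Probe sets of this kind were also those of Rab11b on both designs and a probe set of Rab11a, so these 3 cannot be tied to a single gene.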

How the data were processed

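The deposited values are array intensities of 2 oligonucleotide array designs, scaled by the authors, as the values themselves show: the mean of every array, trimmed by 2% at each end, lay between 300.4 and 300.8. They are whole numbers on a linear scale, with 22.9% below 0 on design a and 33% on b. How background was subtracted is not stated by labels or headers, and 0 columns of values were left unused. Experiment, day and temperature were read from the labels, and gene symbols from the platform annotation.

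The 61 control probe sets per design were left out. As floor, each design had the 75th percentile of the absolute values of its negative intensities, and a probe set was tested if above it on at least 2 of 16 arrays (4294 on design a, 3432 on design b). A linear model (limma 3.58.1, R 4.3.3, with eBayes using trend and robust) was fitted per design over all its arrays, 12 residual degrees of freedom, two-sided, with Benjamini-Hochberg adjustment over both designs and a threshold of 0.05. Change over the days was tested with a natural spline (3 degrees of freedom, F-test). Where every array of the dimmer group is under the floor a fold is a lower bound. The scripts were tested on simulated data.

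Differences between experiments B and A on 4 days correlated across probe sets between each of 6 pairs of days (r from 0.326 to 0.702), and the labels name the experiment, so experiment pairs the samples. Members, classes and lists were chosen with earlier results of these data known. Named with values were those that passed any test, the 5 highest and 5 lowest changes of each phase against day 0 the brightest of each class, and probe sets of a gene that disagreed in direction with one that passed. Others named, such as Rab18, Ap3d1, Copz1, Copg1, Copz2, Snx3, Snx5, Cope and Rab23, were chosen after their values were seen. Alternatives were experiment as a block, experiment A alone, other floors and filters, quantile normalization, eBayes without trend and robust, a covariate for array noise, other limits of the phases, and leaving out each culture. A fit without days 2 and 8 of experiment A on both designs, and one with the set of design b arrays as a covariate, were added after seeing the data.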

Additional observations from a re-analysis of the deposited data

Results flagged for a closer look

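By Dixon's criterion, 5 named probe sets had an array set apart in a group of 4 or 5 arrays. Its gap to its nearest neighbour was large for the range of the group, which chance meets in about 1 of 20 groups. The 31 named probe sets have an early, a middle and a late group each, so 5 is about the count that chance gives. Arf1, Arf3 and Snx1 were flagged on the only array of experiment B in their group. In the early phase, Arf1 read 10.29 (log2; intensity 1251) on day 2 of experiment B against 658 for the nearest array, and Arf3 was at the floor there, at 7.14 against 8.43. Day 2 of experiment A held Arf2 at 8.16 (intensity 286), with the other early arrays at the floor, and Rab5if at 9.74 against 10.26. Late, Snx1 on day 9 of experiment B was at 9.14 (intensity 564) against 10.04 (1054). Of these, Arf3 is in calls with the block, late against early (1.06, adjusted p = 0.0267) and over the time course (adjusted p = 0.0163), and Arf2 in those made without day 0 of B. Snx1 rose late, and without day 9 of B its changes in the middle phase against day 0 (0.88, adjusted p = 0.0494) and late against early (0.95, adjusted p = 0.0496) passed as well.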

How the results depend on the processing

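Named probe sets were compared with their values under an alternative 3460 times, between phases only. Of these, 3393 kept their side of the threshold, 47 lost a call, 20 gained one and 0 changed the direction of a call. Calls over the time course are outside these counts. Under some alternatives Ap1s1, Rab33a and Snx1 lost that call, and Rab24, Rab31 and Arf3 gained it. Also outside them, the middle call of Rab24 ended with early as days 1 and 2 and with late as days 9 to 14. With experiment as a replicate block, which pairs the samples, calls numbered 7 (6.14%) in the middle phase and 8 (7.02%) late. They numbered 1 (0.877%) late against early and 15 (13.2%) over the time course. Of all probe sets 12.4%, 14.5%, 2.38% and 16.1% passed. The call of Vps28 early was lost (0 calls) with no filter, with early as days 1 and 2 and without days 2 and 8 of experiment A. Of all probe sets, 184 of 13057, 172 of 7726 and 203 of 7726 then passed. In experiment A alone, with 1 array at day 0, it was lost as well. The count early was 2 after quantile normalization, where 277 of all 7723 passed, and with the noise covariate, where 451 of 7726 did. Without days 2 and 8 of A the time course passed for 11 probe sets (9.65%, where 10.1% of all passed). Late against early, 1 passed with early as days 1 and 2, where 116 of all 7726 did. Leaving out each culture in turn gave 0 to 1 calls early, 3 to 5 in the middle phase, 4 to 6 late, 0 to 1 late against early and 5 to 10 over the time course. With no filter, untested faint probe sets entered and the median change was 0 early, 0.04 in the middle phase and 0.06 late. Only 2 arrays of a design carry day 0, so each has a large weight. A fit without 1 of them, or of experiment A alone, has 1 array at day 0. Its p-values then take their spread from the other phases only. The cause of these changes was not tested. Signal over background limits what is known of the 34 probe sets that were not tested.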
